A study of Mus musculus with 4 samples.

Results

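The data are the N6-methyladenosine (m6A) peaks of wild-type macrophages that had been cultured with tumour cells. The members are all rows of the peak list of the WT m6A immunoprecipitation (IP) against its WT input, 36507 peaks in all. The series as a whole lists 75204 peaks, the other 38697 being those of Mettl3 cKO macrophages. The WT peaks lay in 13832 genes, and 55 peaks were assigned to no gene.

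The macrophages were grown from bone marrow of C57BL/6 mice with the growth factor M-CSF for 7 days and kept for 24 hours with MC38, a carcinoma line of mouse colon. Mettl3fl/fl mice, which carry loxP-flanked Mettl3 alleles and no Cre, are called WT. The cKO animals carry the same floxed alleles and LyzM-cre, a Cre recombinase driven in myeloid cells by the lysozyme M promoter, so both genotypes share the floxed alleles. Poly(A) RNA was broken into fragments, of which some were pulled down with an antibody to m6A (IP) and the others were sequenced as they were (input). There is 1 IP and 1 input library, so nothing here has a replicate check and no test was made. Shares are given with exact Clopper-Pearson 95% intervals where shown, and these cover counting error only. The labels used here do not give the animals' age, whether animals were pooled or whether MC38 cells were removed before lysis.

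m6A is the most common internal modification of messenger RNA. It is written during transcription by a complex of the catalytic subunit Mettl3 with Mettl14, Wtap and further subunits, removed by the demethylases Fto and Alkbh5, and read by YTH-domain proteins, of which the Ythdf members promote decay of the bound RNA. In mammals it is best known near stop codons, in 3′ UTRs and in long internal exons, at adenosines within a short motif whose commonest form is GGACT. In macrophages, transcripts of cytokine signalling and of its inhibitors are among those known to carry it.

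A peak marks a stretch of RNA and not a modified base, and the following 29-base windows show what the stretches looked like in the genes on which the account turns. They were chosen after the values were seen, as examples of a transcript under a single broad peak (Jun, Klf4, Cebpa, Socs3, Tlr2, Tlr4), of a gene with a long summed span of peaks (Spen, Kmt2d), of a feedback inhibitor (Tnfaip3, Spred2) and of the writer itself (Mettl3). Each is centred on the GGACT nearest to the midpoint of the strongest peak of the gene, in capitals, and reads 5′ to 3′ on the RNA strand with T for U. The letters come from GENCODE release M21 transcripts, and positions are on mm10.
Jun, 3′ UTR, chr4:95050125-95050153, minus strand: ggtacacaagatGGACTgggttgcgacct
Klf4, coding sequence, chr4:55530098-55530126, minus strand: gctgaacagcagGGACTgtcaccctggcc
Cebpa, 3′ UTR, chr7:35120589-35120617, plus strand: ccgcgcaagccaGGACTaggagattccgg
Socs3, 3′ UTR, chr11:117967251-117967279, minus strand: cctttgacaagcGGACTctcccctcccct
Tlr4, coding sequence, chr4:66841008-66841036, plus strand: gagtcagaatgaGGACTgggtgagaaatg
Tlr2, coding sequence, chr3:83836919-83836947, minus strand: caccatttccacGGACTgtggtacctgag
Spen, coding sequence, chr4:141522192-141522220, minus strand: agtgctgcccggGGACTggacgagacagt
Kmt2d, coding sequence, chr15:98844942-98844970, minus strand: caccagcagtggGGACTgcacctgagcca
Tnfaip3, 3′ UTR, chr10:19002400-19002428, minus strand: aaatgcgtgctaGGACTggcagcagttcc
Spred2, coding sequence, chr11:20021003-20021031, plus strand: tgttgattcttcGGACTtcggcttcgggg
Mettl3, 3′ UTR, chr14:52294906-52294934, minus strand: cacaccttaagaGGACTgtttacgcaata

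Those peaks held between 2 and 7 copies of the motif. The peak of Jun, which encodes an AP-1 transcription factor, held 7 copies in 3189 bases. The strongest peak of Tnfaip3, the ubiquitin-editing inhibitor of NF-kB signalling, held 7 in 2876 bases. The 3′ UTR peak of Mettl3 held 2 in 432 bases. Other peaks were sparser: Kmt2d held 3 in 5956 bases, Socs3 2 in 1950 and Tlr4 4 in 3752. The windows of Jun, Cebpa, Socs3, Tnfaip3 and Mettl3 lay 128, 105, 288, 317 and 62 bases past the stop codon. The coding windows of Klf4, Tlr4, Tlr2, Spred2, Kmt2d and Spen lay before it, at -454, -457, -513, -430, -4445 and -10662 bases.

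Across all peaks, GGACT on the RNA strand was denser under peaks than outside them in the same transcripts, at 1.23 against 1.02 copies per kb. It was 1.16 against 0.82 in 3′ UTRs and 1.28 against 1.15 in coding sequence. Among windows of 201 bases at the peak midpoint, 21.3% (95% interval 20.8 to 21.8) held at least 1 copy. All 201141 consecutive windows of the same length on the same transcripts held it in 19.5% (19.3 to 19.7). The share depended on the strength of the peak, which the authors give as the log2 of IP over input. It was 19.0% for peaks with log2 under 1, 20.7% from 1 to 2, 25.6% from 2 to 3, 27.4% from 3 to 4 and 31.7% (28.0 to 35.5) at 4 or more. Peaks under log2 1 thus held the motif about as often as any stretch of the same transcripts. A match says only that these letters are in the window.

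The first question put to the list was how many peaks a gene carries. Of 22028 annotated protein-coding genes, 11935 held at least 1 peak, which is 54.2%, and 1962 held 5 or more, which is 8.91%. Among the 11935, exactly 1 peak was held by 3454 (28.9%) and 5 or more by 16.4%. The median over all 13832 genes was 2 peaks, the mean 2.64 and the highest 30. The 1986 genes with 5 or more held 12581 peaks, or 34.5% of the list. A gene without a peak may be unmethylated, not expressed or too weakly covered, and these cannot be told apart here, since total read counts were not analysed and input FPKM (fragments per transcript length and library depth) was held only for genes with a listed differential peak. Of the 13832 genes, 810 had no peak in the cKO list, and in the other direction 464 protein-coding genes had a cKO peak and no WT peak. Each list rests on 1 IP and 1 input library of unknown depth.

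**Figure D1:**
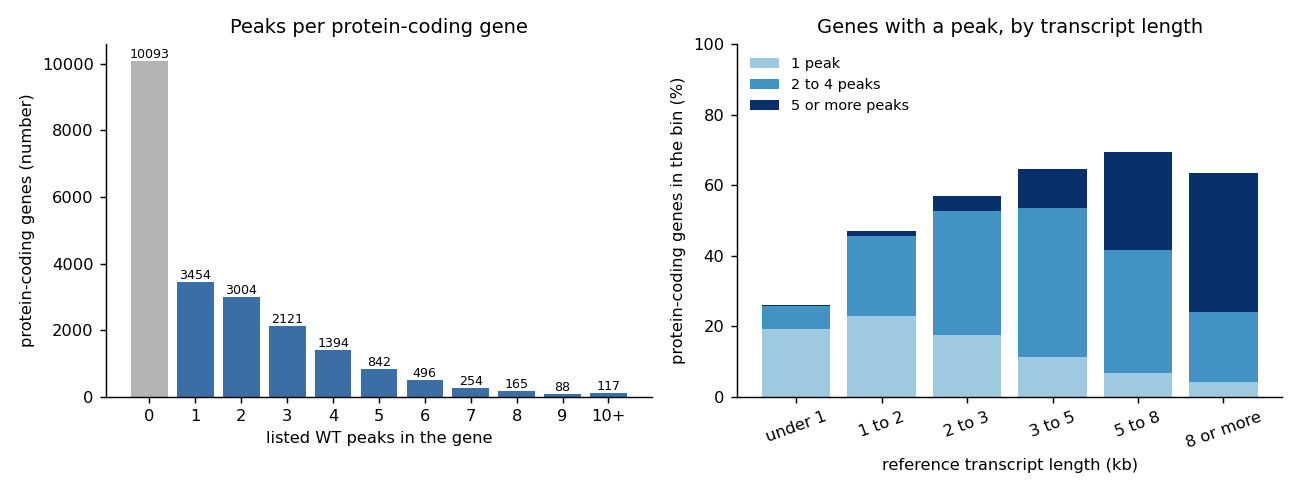
Left, number of protein-coding genes (y axis) by listed WT peaks (x axis): 10093 had none, 3454 had 1 and 117 had 10 or more. Right, share of protein-coding genes in each class of reference transcript length (kb, x axis) with 1, 2 to 4, and 5 or more peaks: the share with 5 or more is 0.214% under 1 kb and 39.5% at 8 kb or more.

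The number of peaks followed transcript length. Each gene was represented by its principal (APPRIS) transcript, called the reference transcript. Of genes with a reference under 1 kb, 26.0% held a peak and 0.214% held 5 or more. At 5 to 8 kb the shares were 69.4% and 27.7%, and at 8 kb or more 63.6% and 39.5%. Per kb of transcript the order was the opposite, from 1.82 peaks under 1 kb to 0.558 at 8 kb or more, among genes with a peak. Across the 11935 genes Spearman's correlation of peak number with length was 0.53, given as a description, since genes are not replicates. It was -0.14 with input FPKM across the 6665 genes that had both.

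Genes with 1 peak and genes with many differed in what their peaks looked like. In genes with 1 peak, the peak was annotated to the 3′ UTR in 87.0%, and its median log2 was 1.65. In genes with 5 or more, 50.8% of peaks were in the 3′ UTR and 32.9% in other exonic sequence, with a median log2 of 1.01. The strongest peak of such a gene had a median log2 of 2.10, and 13.1% of all their peaks reached log2 2, against 38.5% of the peaks in genes with 1. Counting only peaks with log2 of at least 1, 420 genes and not 1986 held 5 or more.

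Dst, a spectraplakin that ties intermediate filaments to microtubules, had the most peaks, 30. Next came Syne2 with 25, Macf1 with 21, Utrn with 18, Nav1 with 17 and Syne1, Kmt2d and Kmt2a with 16 each. Kif1b and Cux1 held 15 each. The 30 peaks of Dst (chromosome 1, 33908225 to 34308661, plus strand) had log2 values between 0.54 and 2.85, and 26 were annotated as exonic and only 2 to the 3′ UTR. Together they covered 57.4% of its 23251-base reference. Its input FPKM was 1.67, below the median of 5.24 over protein-coding genes with a value.

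The summed span of the peaks on exons gave a different order of genes. A gene with a peak had a median of 1275 exonic bases under peaks, with 10% below 325 and 10% above 3400. Ahnak, a giant scaffold protein encoded mostly by 1 exon, had the longest span, 18188 bases in only 5 peaks. Macf1 followed with 17811 bases, Kmt2d with 15600, Dst with 15444 and Spen with 13325. Spen, a transcriptional corepressor, reached that span with 4 peaks. They had log2 values of 5.18, 2.77, 2.39 and 3.74 from the 5′ to the 3′ end, and covered 99.5% of the reference transcript. The 2.39 peak alone took in 8643 bases, most of the coding sequence. Kmt2d, a histone H3 lysine methyltransferase, had 78.2% of its 19823-base reference under 16 peaks. Of these, 1 peak of 5956 bases had a log2 of 3.16, while 10 had a log2 under 1. The map of peaks on transcripts shows both patterns, end to end in Spen and scattered in Dst, Syne2 and Utrn.

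**Figure D2:**
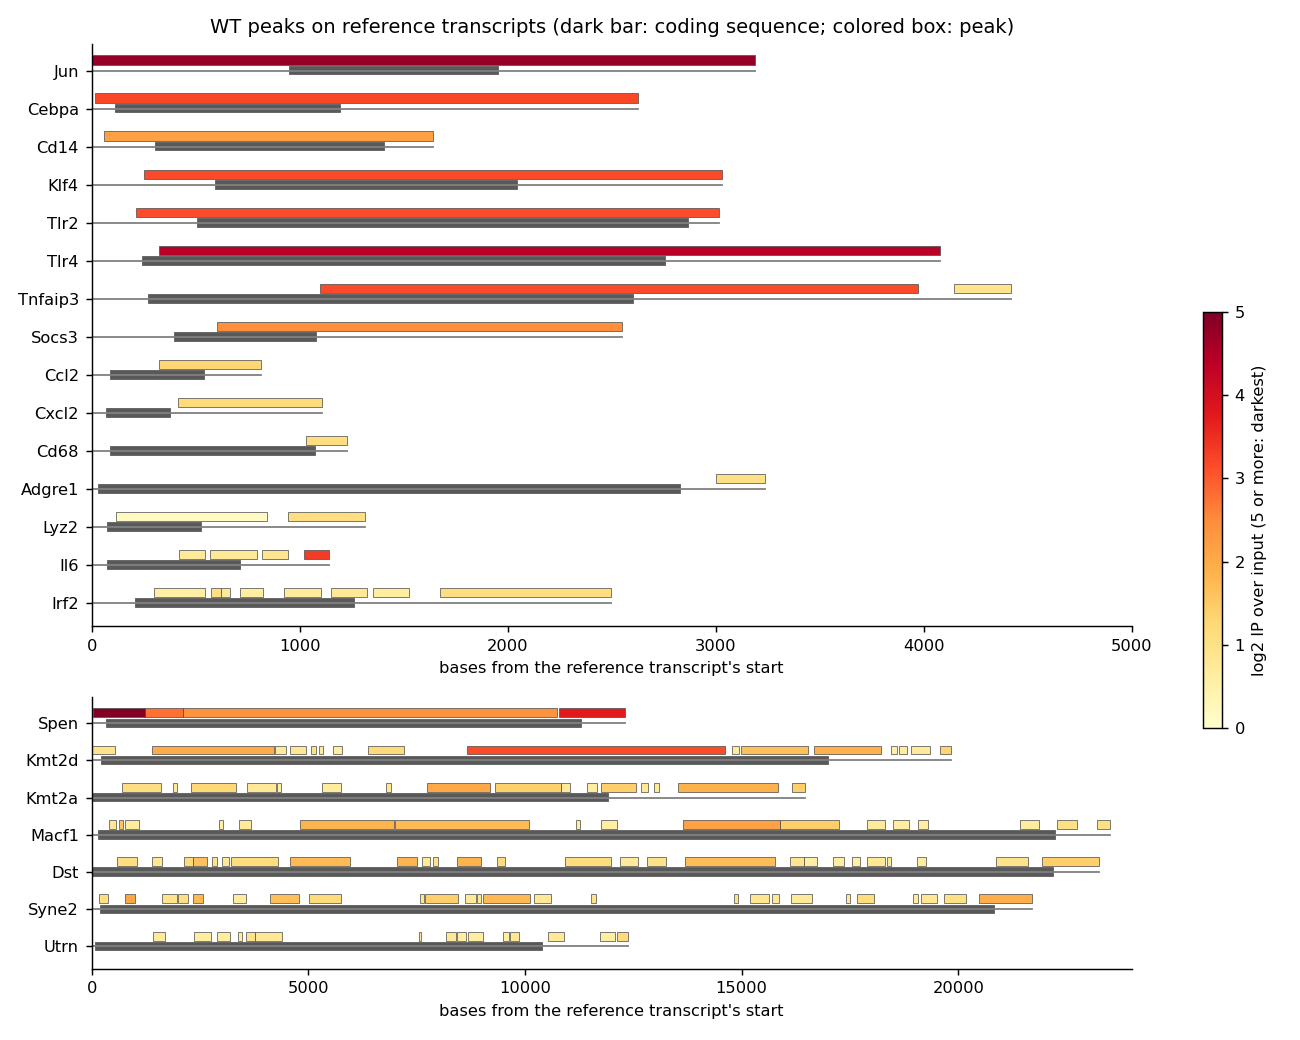
WT peaks (boxes, colored by log2 IP over input) on reference transcripts (line, with the coding sequence as a dark bar), x axis in bases from the transcript start, on a longer axis in the lower panel. Peaks off the reference exons are not drawn; Jun, Cebpa and Tlr4 lie under 1 broad peak, Cd68 and Adgre1 carry 1 short peak near the 3′ end, and Spen is covered by 4 adjoining peaks.

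As a share of the reference transcript, the peaks of a gene covered a median of 38.0%, with 10% of genes below 11.9% and 10% above 76.8%. More than 80% was covered in 977 genes, and under 10% in 897. A single peak could be either kind. Of the 3454 genes with 1 peak, 508 had at least 70% of the transcript under it and 1850 had under 30%, limits chosen after the values were seen. The broad single peaks had a median log2 of 2.67 against 1.45 for the short ones, and a median span of 1675 against 324.5 bases. The transcripts under them had a median of 3 exons against 8, at similar lengths of 1840 and 2285.5 bases. Among the genes with the largest share covered, Jun (chromosome 4, 95049034 to 95052222, minus strand), the costimulatory ligand Tnfsf9 and the immune regulator Tnfaip8l2 each lay wholly under 1 peak, with log2 values of 4.76, 5.11 and 4.97. Phf23, Wdr20, Vps18, Rab20 and Emilin1 were covered in full by 2 or 3 peaks.

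Where an input FPKM was held, the strongest single peaks lay in genes with little or no input. The 5 highest log2 values among genes with 1 peak were 9.39 in Ttc30a2, 9.30 in St8sia1, 8.93 in Kcnk12, 8.80 in Olfr173 and 8.63 in Adamts15. Input FPKM was 0.138 for Ttc30a2, 0 for Kcnk12 and 0.0162 for Adamts15, and not held for the other 2. Across genes with an FPKM, the highest log2 of a gene had a median of 2.61 below 1 FPKM and 1.33 at 100 FPKM or more, and a log2 is a ratio of 2 libraries, not a level of methylation.

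The next question was where on the transcript the peaks lie. The authors' annotation put a 3′ UTR peak in 11290 of the protein-coding genes with a peak (94.6%). In 5451 (45.7%) the 3′ UTR was the only annotated region with a peak, and in 3122 (26.2%) it was joined by exonic sequence. Another 1511 had a 5′ and a 3′ UTR peak, 1206 had peaks in all 3 regions and 394 in exonic sequence alone. The annotation gives a single region to each peak, however long: the peak over all of Jun is listed as 3′ UTR.

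Placing each peak on the reference transcript gave a more even split. Of the peaks in protein-coding genes, 30365 (89.7%) overlapped a reference exon and could be placed. Their midpoints lay in the 3′ UTR in 48.0% (47.4 to 48.6), in the coding sequence in 47.0% (46.4 to 47.5) and in the 5′ UTR in 5.03% (4.79 to 5.28). These regions make up 43.0%, 50.2% and 6.80% of the same transcripts. Peaks covered 44.5% of 3′ UTR bases, 37.6% of coding bases and 23.5% of 5′ UTR bases.

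The regional shares hide a steep local profile. At 1500 bases before the stop codon, 31.1% of transcripts were under a peak. The share was 44.7% at 250 bases before, 67.8% at the stop codon itself and 73.7% at 200 bases after it, then 41.3% at 1000 bases after. At the transcript start it was 9.40%. Each share is over the transcripts that extend to that position. These were 6440 at 1500 bases before the stop codon, 11782 at it, 10409 at 200 bases after and 5969 at 1000 after. The number under a peak was 7990 at the stop codon and 7668 at 200 bases after, so only the share rose past the stop codon. A second rise lay at the other end of the 3′ UTR, with 72.8% under a peak 150 bases before the 3′ end against 36.7% at 1000 bases before. Peaks with log2 of at least 2 showed the stop-codon rise but hardly the second: among transcripts with such a peak, 41.8% were under one 150 bases before the 3′ end and 36.7% at 1000 bases before. The same held per peak. Of peaks centred within 200 bases of the stop codon, 26.6% reached log2 2, and of those centred within 200 bases of the 3′ end, 9.58%. The median log2 values of these peaks were nearer, at 1.40 and 1.26. When only the strongest peak of each gene was kept, 49.2% of midpoints, and not 32.4%, lay within 400 bases of the stop codon.

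**Figure D3:**
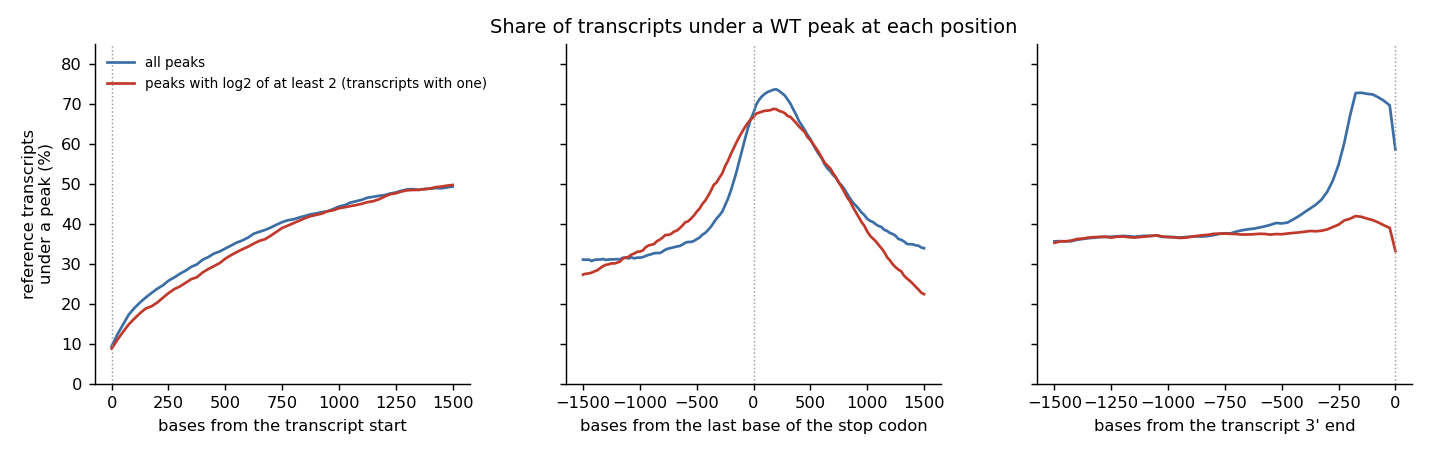
Share of reference transcripts (y axis, %) under a WT peak at each distance in bases (x axis) from the transcript start, the last base of the stop codon and the 3′ end. Only transcripts that extend to a position are counted there. Blue, all peaks on all transcripts with a placed peak; red, peaks with log2 of at least 2, on transcripts that hold one: both rise at the stop codon, and the rise before the 3′ end, to 72.8%, is in blue.

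Few peaks reached the 5′ end. Of the placed peaks, 1046 (3.44%) included the first base of the reference but not the last. Their median log2 was 1.61, and 37.4% of them reached log2 2. Many more, 6842 (22.5%), included the last base but not the first. They had a median log2 of 1.41, and 23.5% of them reached log2 2. Another 65 (0.214%) reached both ends, with a median log2 of 3.04, and 76.9% of them reached log2 2. The 22412 peaks that reached neither end had a median log2 of 1.07, and 18.3% reached log2 2. Antibodies to m6A also bind m6Am, a modified base beside the cap, and its part in the 5′ peaks was not tested.

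Long coding exons were mostly under peaks and short ones mostly were not. In genes with a peak, internal coding exons under 100 bases had 21.5% of their bases under a peak, those from 100 to under 150 bases 21.4% and those from 150 to under 200 bases 21.7%. The share was 24.5% from 200 bases, 36.0% from 300, 58.1% from 400, 73.1% from 600 and 73.7% from 1000 bases, each up to the next bound. It was thus flat up to 200 bases and climbed between 200 and 1000. At least 1 base was under a peak in 93.3% of the 551 exons of 1000 bases or more, against 25.0% of the 34743 exons under 100. With only peaks of log2 of at least 2 the contrast was wider, at 4.72% of bases in exons under 100 and 44.1% in those of 1000 or more.

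Within the last exon the coding part stood out from the rest. It was under a peak in 71.1% of its bases, close to the 70.6% of internal exons over 400 bases, while the 3′ UTR part of the last exon was at 44.3%. The first exon was at 24.0%, and genes with a single exon at 54.1%. Since peaks are listed by their outer ends without the exon blocks between, an exon inside a long peak counts as covered. The values for short internal exons are upper values in that respect. So are the shares covered of transcripts with several exons, here and below.

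**Figure D4:**
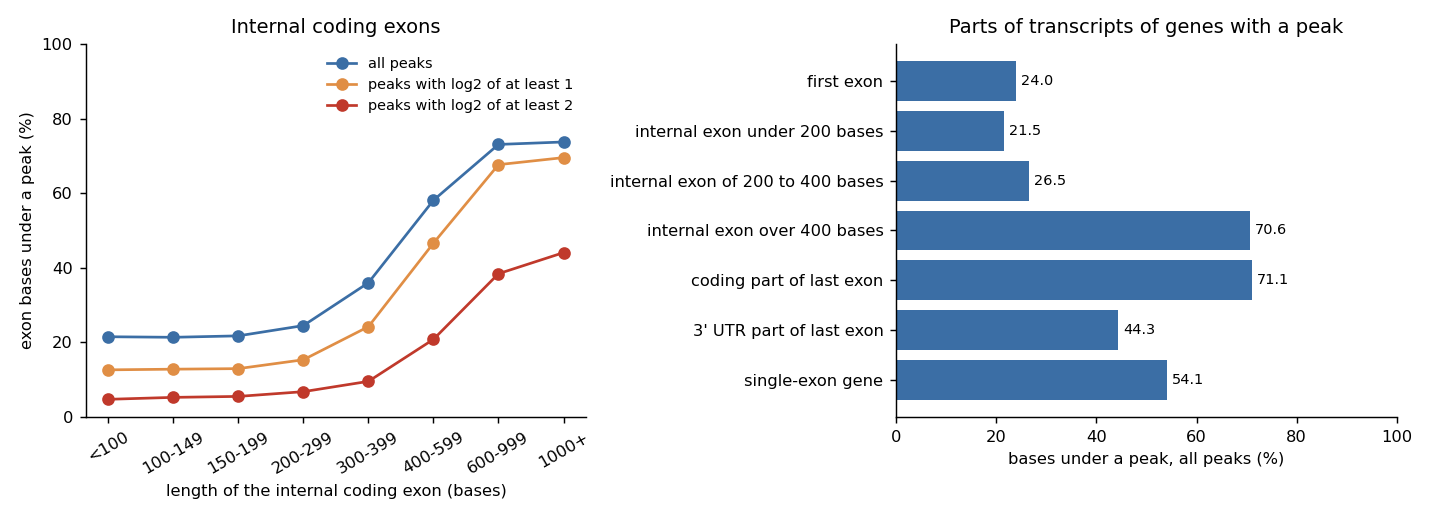
Left, share of bases under a WT peak (y axis, %) in internal coding exons by exon length in bases (x axis), for all peaks and for peaks with log2 of at least 1 or 2; all 3 lines climb from about 200 bases. Right, the same share (x axis, %) for parts of the reference transcripts of genes with a peak, from 21.5% in internal exons under 200 bases to 71.1% in the coding part of the last exon.

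Gene families were compared by how many members carried no peak, 1, 2 to 4, or 5 and more, beside 54.2% with a peak and 8.91% with 5 or more over all protein-coding genes. Of 47 lists, 37 were above the first share and 18 above the second. Members of a list differ in length, exon number and expression, all of which move with peak number, and a list's share was not adjusted for them.

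**Figure D5:**
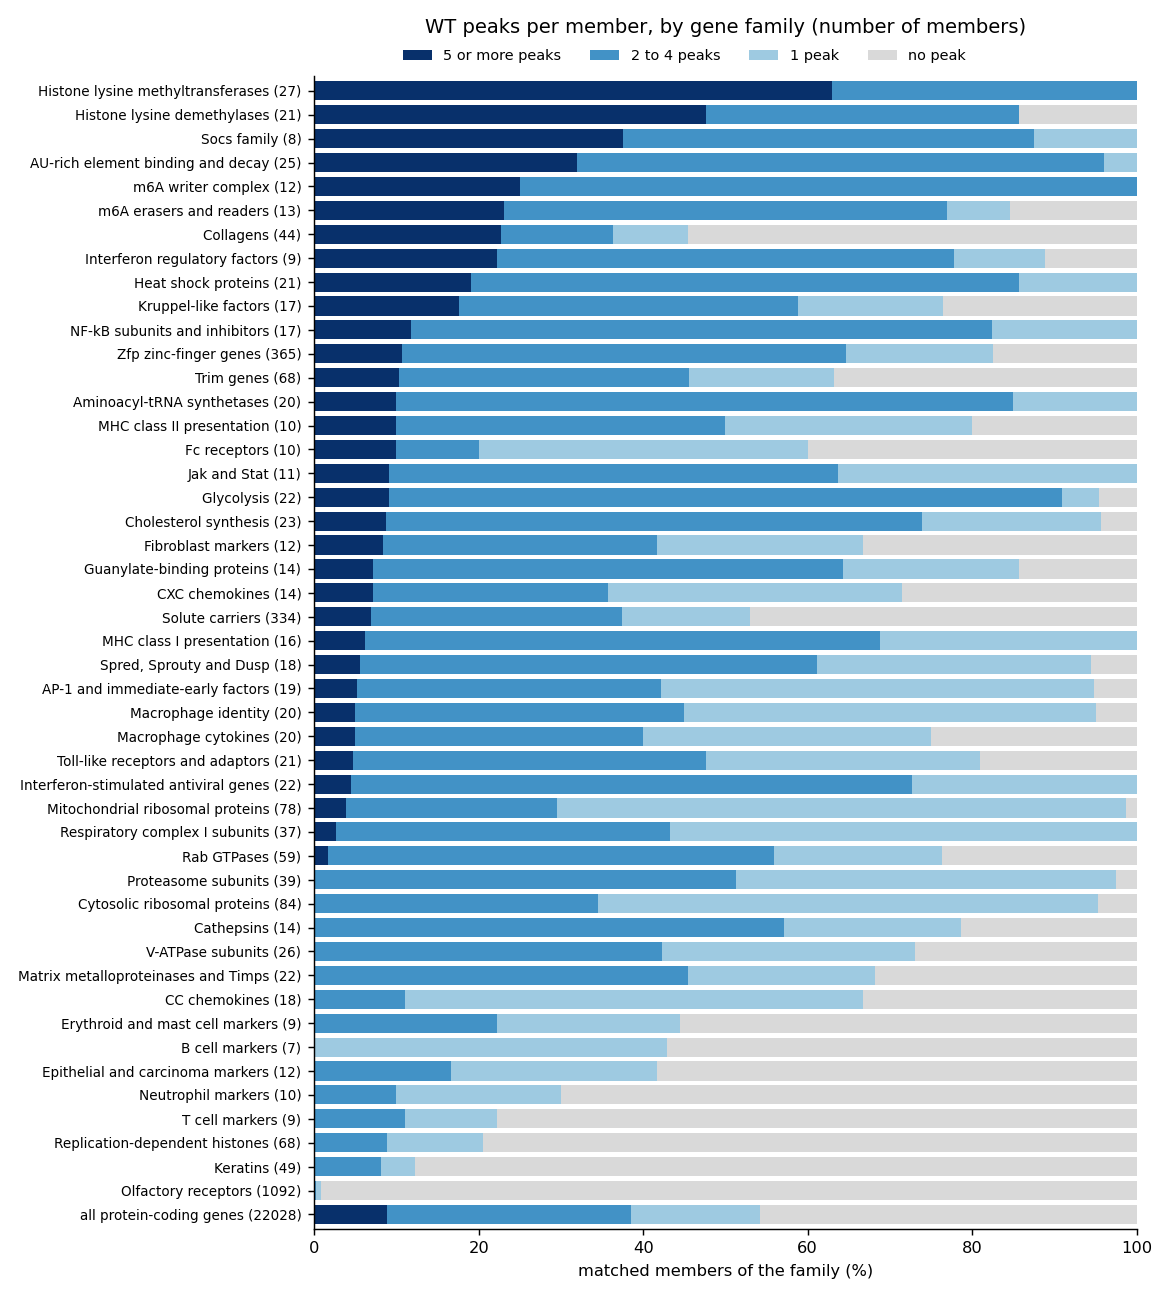
Share of the matched members of each of 47 gene lists (x axis, %) with 5 or more, 2 to 4, 1 and no WT peak, ordered by the share with 5 or more; the number of members is in brackets. The lowest bar is all 22028 protein-coding genes; histone lysine methyltransferases are at the top, and olfactory receptors have a peak in 0.824% of members.

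Chromatin modifiers had the largest shares with 5 or more peaks of the 47 lists. All 27 histone lysine methyltransferases had at least 2, and 17 (63.0%) had 5 or more. Besides Kmt2d and Kmt2a they included Nsd2 with 10 peaks and Setd1a with 9. Their 173 peaks were 45.1% in 3′ UTRs and 43.9% in other exonic sequence, the latter against 24.6% over all protein-coding genes. The median reference length was 6808 bases against 2563 over all. Of 21 histone lysine demethylases 18 had a peak and 10 had 5 or more, led by Kdm5a with 13, Kdm5b with 10, Jmjd1c with 8 and Kdm3b with 7. Collagens, with many short exons, were split: 24 of 44 had none and 10 had 5 or more, with 58.0% of their 81 peaks in exonic sequence. Col5a3 led with 8.

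Most genes of the m6A machinery held listed peaks themselves. All 12 writer genes had 2 to 6 peaks, with 28 of their 42 peaks in the 3′ UTR. Zcchc4, which methylates ribosomal RNA, had 6, and the cap methyltransferase Pcif1 and the Mettl3 partner Mettl14 had 5 each. The adaptor Rbm15 had 4, over 90.3% of its transcript. Mettl3 had 2, with log2 values of 1.37 and 1.33. Of 13 erasers and readers 11 had a peak, Ythdc1 with 9, Hnrnpa2b1 and Igf2bp2 with 5 and Hnrnpc with 4. Igf2bp1 and Igf2bp3 had none. Of the writers' peaks 26.2% reached log2 2 and of those of erasers and readers 11.9%, against 19.8% over all protein-coding genes. The demethylase Alkbh5 had 4 peaks and Fto 3, and the decay-promoting reader Ythdf2 had 1, with a log2 of 2.88 over 62.4% of its transcript; these 3 genes were chosen after their values were seen.

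In the cytokine receptor pathway, peaks covered a median of 60.8% of the transcripts of inhibitors and 19.1% of those of kinases and transcription factors. The inhibitors' references mostly have 2 to 3 exons (10 in Socs7), and those of the kinases and transcription factors 19 to 25. Over protein-coding genes with a peak, the median covered was 57.2% at 2 to 3 exons and 27.8% at 21 or more. The contrast was not adjusted for exon number. All 8 Socs genes, whose proteins block Jak signalling, had a peak. Of their 27 peaks 21 were in the 3′ UTR and 0 in other exonic sequence. Socs5, Socs7 and Socs2 had 5 each and Socs4 had 4. Socs1 had 3, the strongest with a log2 of 5.12 over 200 bases. Socs3 had 1, with a log2 of 2.46 over 1950 bases at an input FPKM of 175. All 11 Jak and Stat genes had a peak too, and the median covered over all protein-coding genes with a peak was 38.0%. Here 13 of 29 peaks were in the 3′ UTR and 14 in exonic sequence. Jak1, Stat3 and Stat5a had 4 each. In Jak1, the peak at the stop codon had a log2 of 2.86 and its 3 coding peaks 0.64, 0.66 and 0.78. Socs1 and Socs3 were chosen after their values were seen.

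The Spred, Sprouty and Dusp genes, inhibitors of Ras and MAP kinase signalling, were also broadly covered. Of 18, 17 had a peak, with a median of 66.8% of the transcript covered against 38.0% over all protein-coding genes with a peak. Of their 37 peaks 40.5% reached log2 2 against 19.8% over all protein-coding genes. Neither value was adjusted for exon number. Spred3 had 7 peaks, and Dusp16, Spred2 and Dusp7 had 3 each. Spry3 had none.

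Immediate-early transcription factors often lay under a single broad peak. Of 19, 18 had a peak and 10 had exactly 1. Over the 18, a median of 74.9% of the transcript was covered, against 38.0% over all protein-coding genes with a peak. The references of Jun, Jund and Junb have 1 exon, and genes with 1 exon and a peak had a median of 60.8% covered. Exon number was not adjusted for. Jun and Jund were covered in full, Junb to 99.5% and Egr2 to 99.6%, with log2 values of 4.76, 3.45, 2.24 and 3.41. Atf3 and Ier3, with input FPKM of 262 and 182, had 75.6% and 92.8% covered. Those with the most peaks were Fosl2 with 6, Nr4a1 and Fos with 4 and Fosl1 with 3. Fosb had none. Among 17 Krüppel-like factors 13 had a peak, Klf13 with 9 and Klf3 and Klf7 with 6. The peaks of Klf13 were 1 of log2 4.44 over 2722 bases and 8 between 0.58 and 1.16. Klf4 had 1 peak, of log2 3.17 over 91.8% of its transcript, and Klf1, Klf14, Klf15 and Klf17 had none. Jund, Junb, Egr2, Atf3, Ier3 and Klf4 were chosen after their values were seen.

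Among Toll-like receptors, the sensors of microbial products, 5 of 12 lay under a broad single peak. Of 21 receptors and adaptors 17 had a peak and 7 had exactly 1. In these 5 the peak covered 92.0% of Tlr4, 92.9% of Tlr2, 94.9% of Tlr7, 91.9% of Tlr8 and 89.9% of Tlr13, with log2 values of 4.40, 3.15, 2.11, 2.89 and 2.51. Over all 22028 protein-coding genes, 508 had 1 peak over at least 70% of the transcript. Coverage was higher in genes with few exons, with a median of 57.2% at 2 to 3 exons, and exon number was not adjusted for. The peak of Tlr4 runs from 66827909 to 66929078 on chromosome 4, introns included, so its share is an upper value. Tlr1 and Tlr6 had 2 peaks over 87.8% and 89.1%, and Tlr3 had 3 over 58.4%. Of the adaptors with 1 peak, Ticam1 had it over 91.9% with a log2 of 2.31, and Myd88 over 15.3% with a log2 of 1.35. Irak4 had 5 peaks and Irak2, Tirap and Ticam2 had 4. Tlr5, Tlr9, Tlr11 and Tlr12 had none. All 17 genes of NF-kB subunits and inhibitors had a peak, led by Rel and Ikbkb with 6, Tnip3 with 4 and Tnip1 with 3. Tnfaip3 had 2, of log2 3.17 and 0.92. The 8 receptors with a peak, Ticam1, Myd88 and Tnfaip3 were chosen after their values were seen.

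Most chemokines with a peak had exactly 1, on short transcripts. The median reference over all members was 797.5 bases for CC and 1129.5 for CXC chemokines. Per kb, the members with a peak held 1.03 and 1.07 peaks against 0.806 over all protein-coding genes with a peak, and a median of 36.6% and 32.4% of the transcript was covered against 38.0%. Genes with a peak held 1.82 per kb at references under 1 kb and 1.20 at 1 to 2 kb, so the chemokine values were not high for short transcripts. Of 18 CC chemokines 12 had a peak, 10 of them exactly 1 and none 5 or more. Of their 14 peaks 13 were in the 3′ UTR, with a median log2 of 1.19. Ccl25 and Ccl9 had 2, and Ccl22 and Ccl3 had 1 of log2 1.34 each. The single peak of Ccl3, at an input FPKM of 886, spanned 225 bases. Of 14 CXC chemokines 10 had a peak, with 16 of 18 in the 3′ UTR. Cxcl12 had 5, and Cxcl5, Cxcl14 and Cxcl16 had 2. Ccl1, Ccl11, Ccl12, Ccl19, Cxcl13, Cxcl15, Cxcl17 and Ppbp had none. Among 20 macrophage cytokines 15 had a peak. Il6 had 5, with log2 values of 0.74, 1.05, 0.78, 0.89 and 3.34 from the 5′ to the 3′ end, Tgfb1 and Il1a had 4 and Csf1 had 3. The single peak of Tnf, chosen after its values were seen, covered 99.1% of the transcript. Il10, Il12b, Csf2 and Ifnb1 were among the 5 without a peak.

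Nearly all genes of the interferon pathway held a peak. Of 9 interferon regulatory factors 8 had a peak, Irf2 with 8, Irf9 with 6 and Irf3 and Irf8 with 4. The peaks of Irf2 were all weak, with log2 between 0.56 and 1.11. All 22 antiviral interferon-stimulated genes had a peak, 15 of them 2 to 4, and Ifih1, an RNA sensor, had 5. Of 14 guanylate-binding proteins and related GTPases 12 had a peak, led by Gbp4 with 6 and Gbp7 with 4, and Gbp2b and Gbp10 had none. All 16 genes of MHC class I presentation had a peak, led by their transcriptional activator Nlrc5 with 5. Of 10 in class II 8 had one, led by the corresponding activator Ciita with 6.

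Peaks on macrophage markers are given as a description, since a peak is a ratio of IP to input and cannot check cell identity. Of 20 macrophage identity genes 19 had a peak, Timd4 being the exception, beside 54.2% over all protein-coding genes. The defining genes Csf1r, Adgre1, Cd68, Itgam, Lyz2 and Spi1 all had one. Msr1, a scavenger receptor, had 6 peaks, Mertk 4 and Maf 3. Cd68 and Adgre1 had short peaks near the 3′ end. Cd68, at an FPKM of 695, had 1 of log2 1.10 over 200 bases, and Adgre1, at 220, had 1 over 238 bases. The transcription factor Cebpa and the lipopolysaccharide coreceptor Cd14 were covered to 99.4% and 96.5% by 1 peak each, of log2 3.20 and 2.15. These 4 were chosen after their values were seen.

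Some markers of other cell types held a peak too. A peak was held by 2 of 9 T cell, 3 of 7 B cell, 3 of 10 neutrophil and 4 of 9 erythroid and mast cell markers. Of these and the 2 lists below, only fibroblast markers (66.7%) were above the 54.2% over all protein-coding genes. Of 12 epithelial and carcinoma markers 5 had one, Cdh1 with 4, Krt19 with 2 and Krt18, Muc1 and Krt8 with 1, in a culture that contained MC38 carcinoma cells. Krt19 had an input FPKM of 7.05. Of 12 fibroblast markers 8 had a peak, led by Pdgfra with 7, and Col1a1, Col3a1, Sparc and Dcn had input FPKM of 26.8, 19.1, 32.4 and 28.7. Fap, Lum, Postn and Acta2 had none. The part of such RNA in the peaks of any other gene was not tested. Krt8, Col1a1, Sparc and Dcn were chosen after their values were seen.

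Nearly all genes of several housekeeping complexes had a peak, and in the ribosomal lists most had exactly 1. Of 84 cytosolic ribosomal proteins 80 had a peak, 51 exactly 1 and none 5 or more. Of their 121 peaks 78.5% were in the 3′ UTR, and their median input FPKM was 151. Their transcripts are short, with a median of 886.5 bases over all members. Per kb, the members with a peak held 1.43 peaks against 0.806 over all protein-coding genes with a peak, and a median of 37.0% of the transcript was covered against 38.0%. Genes with a peak and a reference under 1 kb held 1.82 per kb, so the ribosomal value was not high for short transcripts. Rpl18 had 4, and Rpl10l, Rpl17, Rpl39l and Rpl3l had none. Of 78 mitochondrial ribosomal proteins 77 had a peak, 54 of them 1. All 37 subunits of respiratory complex I had a peak, 21 of them 1, and so did 38 of 39 proteasome subunits. Aminoacyl-tRNA synthetases (20 of 20), heat shock proteins (21 of 21) and factors that bind AU-rich elements or decay RNA (25 of 25) had a peak in every member. Of the decay factors 8 had 5 or more, led by the exonuclease Xrn1 with 13 and the Roquin paralog Rc3h2 with 9.

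Glycolysis and cholesterol synthesis genes had a peak in all members but 1 each. Of 22 glycolysis genes 21 had a peak, 18 of them 2 to 4, led by Pfkp with 7 and Eno2 with 6. Pgk1 had none at an input FPKM of 491. The processed pseudogene Pgk1-rs7 had 3, with log2 between 0.80 and 1.06, and whether reads of Pgk1 were placed there was not tested. Of 23 cholesterol synthesis genes 22 had one, led by Lss and Fdft1 with 5, and Fdps had none. Members without a peak were more numerous in lysosomal and other lists. Of 14 cathepsins 11 had a peak, led by Ctsc with 4, and the aspartyl protease Ctsd, Ctsg and Ctsw had none. Ctsb had 3 peaks, of log2 1.01 to 1.72. A peak was held by 19 of 26 V-ATPase subunits, 15 of 22 matrix metalloproteinases and their inhibitors, 45 of 59 Rab GTPases and 6 of 10 Fc receptors. The inhibitory receptor Fcgr2b led the last of these with 6. Over all protein-coding genes, 3464 had an input FPKM of at least 5, and 14 of these had no WT peak. Those genes have an FPKM here only through a listed differential peak, so their number is a lower bound.

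Olfactory receptors, keratins and replication-dependent histones held few peaks. Olfactory receptors had a peak in 9 of 1092 (0.824%) and keratins in 6 of 49. Replication-dependent histones, whose messages end in a stem-loop and are not polyadenylated as a rule, had one in 14 of 68, Hist1h1d leading with 3. Solute carriers were close to the background, at 177 of 334 (53.0%).

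Zinc-finger genes were the largest list with a share above the 54.2% over all protein-coding genes. Of 365 genes with a Zfp symbol 301 had a peak (82.5%) and 39 had 5 or more (10.7%). Their transcripts were covered to a median of 58.8% against 38.0%, and 38.5% of their 839 peaks reached log2 2 against 19.8% over all protein-coding genes. The median input FPKM was 1.78 over the 164 with a value, against 5.24 over all genes with one, and, as above, log2 values were higher at low input. Zfp704, Zfp462, Zfp384 and Zfp507 had the most peaks. Of 68 Trim genes 43 had a peak, Trim56 and Trim30d with 7. Paralogs in these and in the guanylate-binding, MHC and histone lists share sequence, and the treatment of reads with several matches is not stated.

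Outside protein-coding genes, 1888 of 33508 annotated genes (5.63%) held a peak. Among antisense genes 605 of 2959 (20.4%) had one, among lincRNAs 294 of 5854 (5.02%) and among processed pseudogenes 410 of 9941 (4.12%). The libraries keep strand, but whether peak calling used it is not stated, so a peak in an antisense gene cannot be told apart from one in its partner. Malat1, an abundant nuclear noncoding RNA with an input FPKM of 171, had 4 peaks over 3550 of its 6983 bases, with log2 between 0.69 and 2.14. Meg3 had 4 over 1630 bases and H19 had 3 over 1800. These 3 were chosen after their values were seen.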

How the data were processed

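RNA of the WT IP and the WT input library was compared, 1 sample each. Per the labels' protocols, poly(A) RNA from 50 µg of total RNA was fragmented at 86 °C for 7 minutes, incubated with the antibody for 2 hours, amplified for 8 cycles and read as pairs of 150 bp from inserts of 300 bp. The submitters' processing notes name mm10 and, in no order, edgeR, StringTie, ChIPseeker, HOMER, HISAT2 and fastp. Tool versions and roles, the peak caller and how IP was scaled to input: not given in the sources used here. Read totals were not analysed, so depth is unknown.

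Per peak, the list deposited by the authors holds log2 IP over input, a p-value and its adjusted form, per the file headers. Every p lay below 0.05, and 326 adjusted values were 0.05 or more, up to 0.0539. Log2 values ran from 0.09 to 10.32 with a median of 1.22. Peak length is deposited in bases, another column of that list, introns included. Input FPKM values were deposited by the authors only for genes with a listed differential peak.

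Peaks were counted per gene identifier (13823 of 13832 matched GENCODE M21) and intersected with the exons, using Python 3.11.15, pandas 2.3.3, numpy 2.4.6, scipy 1.17.1 and matplotlib 3.10.9. Position used the principal APPRIS transcript. Short references exist (830 bases for Ahnak), and 94 have no UTR, so no share is given for Ahnak. File starts count from 0 and are given from 1. Placement was tested on simulated data. Of all peaks, 237 overlapped another in the same gene.

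The families, members and limits were chosen with earlier results of these data known. Named genes are up to 4 per family with the most peaks (ties by log2) and up to 4 without any, the 10 with most peaks, with the longest exonic span and with the largest share of a transcript of at least 1000 bases covered, and the 5 strongest single peaks. The list symbols Cxcl11, Mx2, Gbp11, Trac and Ighm matched no protein-coding gene. Predicted, Rik and mitochondrial symbols were left out. Alternatives were an adjusted p below 0.05, log2 of at least 1 or 2, peaks merged within 200 bp, the longest coding transcript, the strongest peak per gene, midpoints and genomic span. The values of a few list members are not reported here.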

Additional observations from a re-analysis of the deposited data

How the results depend on the processing

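No paired analysis was possible because each group had 1 sample, and no replicate could be left out. Requiring an adjusted p below 0.05 left all 104 results it was applied to within their interval or within 1.5 times the count. Other choices moved values by their construction, fewer or longer peaks. With log2 of at least 1, genes with 5 or more peaks numbered 420, and with peaks merged within 200 bp 1130. Genes with a peak were 50.7% of protein-coding genes at log2 of at least 1 and 24.9% of all annotated genes. The median span was 3518 bases as genomic distance. With log2 of at least 2, the 3′ UTR held 60.3% of peaks, exonic sequence 12.6%, the 5′ UTR 10.6% and introns 2.69%, and by midpoint the first 3 held 48.0%, 47.0% and 5.03%. On the longest coding transcript 49.4% of midpoints lay in the 3′ UTR and 31.2% within 400 bases of the stop codon, and with the strongest peak per gene 59.7% and 49.2%. Internal exons under 200 bases were covered to 14.0% at log2 of at least 1. Of 96 family results, 68 kept their value within these limits at log2 of at least 1 and 74 after merging. Unknown depth limits every statement on genes without a peak.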
